A study of Homo sapiens with 6 samples.

Results

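The genes described here mark where a melanoma cell stands between the melanocyte lineage and a dedifferentiated state. They were chosen by symbol, as the rows of the deposited count table that carry 1 of 10 listed names: MITF, SOX10, PAX3, PMEL, MLANA, TYR, DCT, SOX9, NGFR and AXL. Of these, 7 had a row among the 20851 genes of the table. MLANA, TYR and DCT had no row in the table used here and were not analysed. None of the 7 was removed for low counts, so all were among the 14443 genes tested.

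RNA-seq was carried out on A375, an established human melanoma cell line, in RPMI-1640 culture. The A375RIPK4.KO subline lost the kinase gene RIPK4 by CRISPR/Cas9 with a lentivirally delivered guide, and its 3 libraries came from a single clone, so loss of RIPK4 and differences between clones cannot be told apart. The 3 A375neg libraries came from control cells with a nontargeting guide according to the methods, which the sample labels call a GFP control. Replicates are called biological in the design text, and p-values measure the spread between these libraries.

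MITF is the transcription factor that drives pigment cell identity, and SOX10 and PAX3 act upstream of it. PMEL, MLANA, TYR and DCT are products of the pigment programme that MITF switches on. Melanoma cells that leave this programme commonly lose MITF and SOX10, and gain the receptor tyrosine kinase AXL and the transcription factor SOX9. NGFR, a neurotrophin receptor of neural crest cells, marks an intermediate state that usually retains SOX10.

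The libraries held 21882863 to 26694140 counts in genes, and 3 counts, the most that a count of 0 allows, were 0.112 to 0.137 CPM (counts at a shared library total, counting error only). RIPK4 had 319, 368 and 404 raw counts in A375neg and 42, 51 and 61 in A375RIPK4.KO, so the libraries matched their labels. Replicate 2 of A375RIPK4.KO stood apart from the other libraries. Its counts ran lower for longer genes, by 0.047 on the log2 scale for each doubling of length, where the slopes of the other libraries lay between −0.003 and 0.016.

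Of the 7 members, SOX9 rose and MITF and NGFR fell in A375RIPK4.KO, while SOX10, PAX3, PMEL and AXL did not pass the test. In such bulk samples, fewer cells with a transcript and less of it per cell cannot be told apart. A gene passed when its adjusted p was under 0.05 in edgeR's quasi-likelihood test, adjusted by the Benjamini-Hochberg method across the whole table tested. That is 3 of 7 members, against 16.6% of all tested genes. In the direction higher it is 1 of 7 against 8.4%, and in the direction lower 2 of 7 against 8.24%. With a fold change of at least 1.5 required as well, 2 members remained, SOX9 and NGFR, against 9.04% of all genes. Normalised counts were without overlap between the groups in 5 of 7 members, all but PAX3 and PMEL, against 36.5% of all genes. The median log2 fold change was −0.20 over the members and −0.01 over all genes tested. DESeq2 called 5 of 7 members, with SOX10 and AXL in addition, against 15.7% of the genes it tested. On counts simulated with edgeR's own estimates of the spread of each gene, DESeq2 called more unchanged genes than edgeR.

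MITF spans bases 69739464 to 69968332 of chromosome 3 (GRCh38, as for the positions that follow). It had 500, 440 and 535 raw counts in A375neg replicates 1 to 3 and 326, 288 and 376 in A375RIPK4.KO replicates 1 to 3. Every A375RIPK4.KO library was below every A375neg library. Normalised counts were 471 ± 56.8 (SD, n = 3) and 346 ± 41.3 (SD, n = 3), which is 1.36-fold lower, with a log2 fold change of −0.44 (standard error 0.13, edgeR adjusted p = 0.0449). This call was close to the threshold and rested on most single libraries. It was kept without A375neg replicate 2 (edgeR adjusted p = 0.0374) and lost without each of the other libraries, where edgeR adjusted p ran from 0.0571 to 0.154. MITF has several promoters and isoforms, including 1 of melanocytes, and counts per gene do not separate them.

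SOX10, the neural crest and melanocyte factor upstream of MITF, lies on chromosome 22 from 37972312 to 37984555. It had 8844, 9781 and 10056 raw counts in A375neg and 7451, 7448 and 7858 in A375RIPK4.KO. The groups did not overlap, and the difference was small, with normalised counts of 9128 ± 359 (SD, n = 3) and 7962 ± 184 (SD, n = 3). The log2 fold change of −0.20 (standard error 0.06) missed the threshold (edgeR adjusted p = 0.0507), and it passed with DESeq2 (adjusted p = 0.0144) and without A375RIPK4.KO replicate 2 (edgeR adjusted p = 0.0322). Its exons share 89 bases, 2.4% of their length, with POLR2F on the opposite strand.

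PAX3, on chromosome 2 from 222199887 to 222298998, encodes a paired box factor of neural crest and melanocyte precursors. It had 275, 287 and 240 raw counts in A375neg and 228, 251 and 198 in A375RIPK4.KO, and the normalised counts overlapped (log2 fold change −0.11, standard error 0.15, edgeR adjusted p = 0.672). PMEL, on chromosome 12 from 55954105 to 55966709, encodes the fibril protein of melanosomes. It had 7, 17 and 22 raw counts in A375neg and 3, 10 and 21 in A375RIPK4.KO. These counts varied within each group as much as between them (log2 fold change −0.30, standard error 0.63, edgeR adjusted p = 0.794), so no difference was detectable at this depth. PMEL exons share 89 bases with CDK2 on the opposite strand, and CDK2 had 1839 to 3092 raw counts in the same libraries. Whether the counting used strand is not given in the sources used here, so some PMEL counts may be reads of CDK2.

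SOX9, on chromosome 17 from 72121020 to 72126416, rose from few counts. This SOX family factor takes part in neural crest and cartilage development. It had 19, 12 and 14 raw counts in A375neg and 87, 72 and 113 in A375RIPK4.KO. No A375RIPK4.KO library was near the A375neg range, and normalised counts were 14.4 ± 4.10 (SD, n = 3) and 94.9 ± 19.7 (SD, n = 3). The gene was 6.55-fold higher, a log2 fold change of 2.71 (standard error 0.29, edgeR adjusted p = 0.000277), and it passed in 12 of 12 alternative settings with log2 fold changes of 2.55 to 2.95.

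NGFR, on the same chromosome from 49495293 to 49515008, showed the opposite change. It had 192, 173 and 209 raw counts in A375neg and 12, 21 and 31 in A375RIPK4.KO. The lowest A375neg library lay far above the highest A375RIPK4.KO library, with normalised counts of 183 ± 20.8 (SD, n = 3) and 22.2 ± 9.16 (SD, n = 3). NGFR was 8.19-fold lower, a log2 fold change of −3.03 (standard error 0.29, edgeR adjusted p = 0.000141), and it passed in 12 of 12 alternative settings with log2 fold changes of −3.37 to −2.77. The annotation places 2 genes with no row in the table on the opposite strand of its exons, AC015656.1 over 22.3% and AC006487.1 over 4.87% of the exon length, so reads of these could count for NGFR if strand was not used.

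AXL, on chromosome 19 from 41219223 to 41261766, was the member with the most counts. It had 14032, 14607 and 14548 raw counts in A375neg and 13990, 14519 and 16096 in A375RIPK4.KO, which overlap. After normalisation they did not overlap, at 13758 ± 288 (SD, n = 3) and 15589 ± 637 (SD, n = 3). The log2 fold change of 0.18 (standard error 0.06) did not pass (edgeR adjusted p = 0.0727), and passed with DESeq2 (adjusted p = 0.0185) and without A375RIPK4.KO replicate 2 (edgeR adjusted p = 0.0154).

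**Figure D1:**
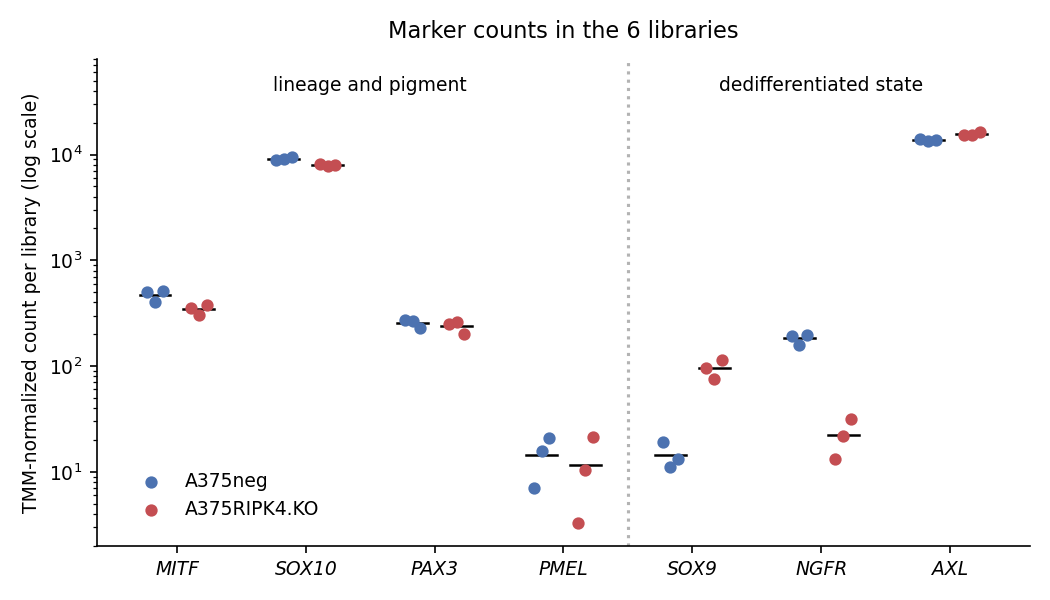
Normalised counts of the 7 members in each library of A375neg and A375RIPK4.KO on a log axis, with a black line at the mean of each group (n = 3). SOX9 lies higher and NGFR and MITF lie lower in A375RIPK4.KO, and the libraries of PAX3 and PMEL overlap between the groups.

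The log2 fold changes of SOX9, NGFR, MITF, SOX10 and AXL under every setting tried are plotted next. SOX9 and NGFR kept large values throughout. MITF stayed between −0.54 and −0.35, SOX10 between −0.22 and −0.16 and AXL between 0.15 and 0.20, and these 3 crossed the threshold in some settings and not in others. MITF passed in 6 of 12, SOX10 in 4 of 12 and AXL in 3 of 12. PAX3 and PMEL passed in none and changed sign when single libraries were left out.

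**Figure D2:**
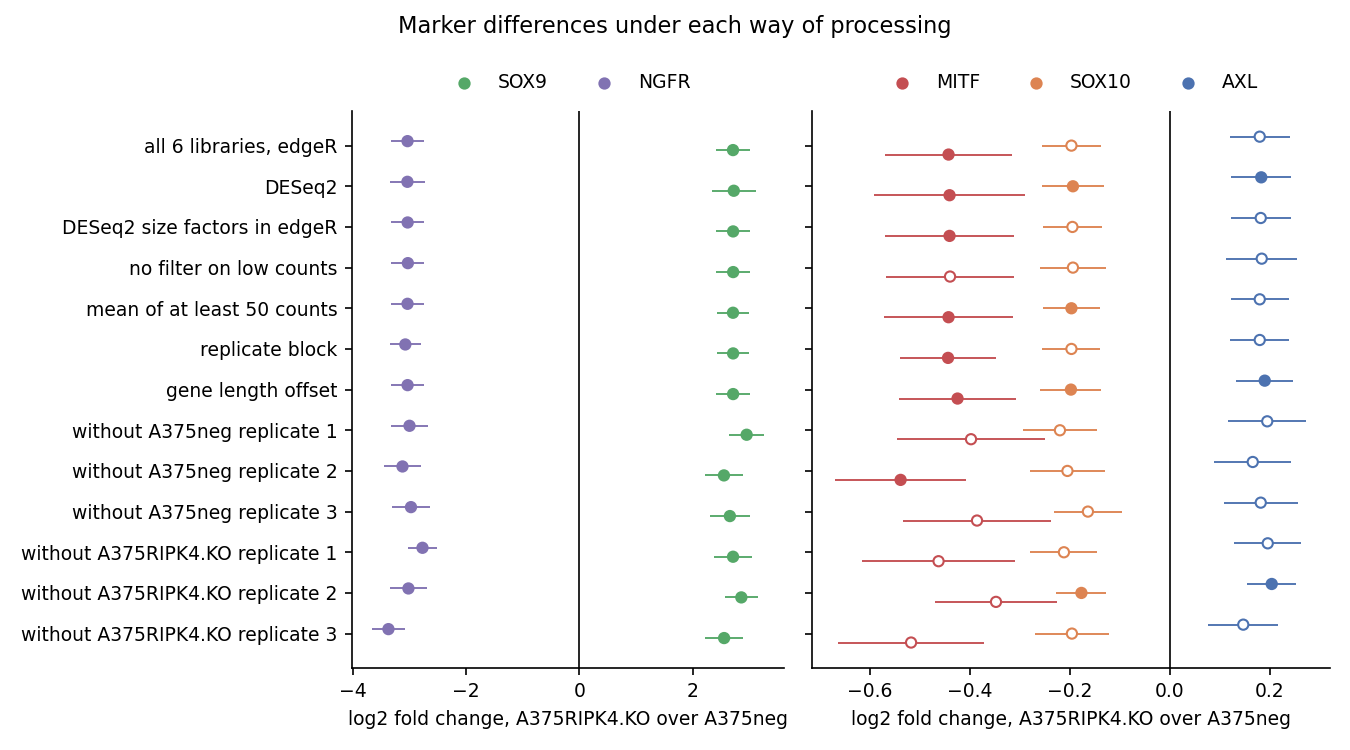
Log2 fold change of A375RIPK4.KO over A375neg for SOX9, NGFR, MITF, SOX10 and AXL in the reported comparison and in each alternative. Bars give the standard error, and filled points mark an adjusted p under 0.05. SOX9 and NGFR are filled in every setting. PAX3 and PMEL are not drawn.

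Levels were also set between genes, as counts per kilobase of exon scaled to the same total in each library over genes with a known length. In A375neg, AXL (482 ± 11.9, SD, n = 3) and SOX10 (444 ± 17.1, SD, n = 3) had the highest per-length levels, above those of 98.15% and 97.97% of genes. MITF followed at 11.8 ± 1.46 (SD, n = 3), near the middle of all genes with 50.64% below it. NGFR had 7.97 ± 0.927 (SD, n = 3), PAX3 had 5.81 ± 0.573 (SD, n = 3), PMEL had 0.671 ± 0.323 (SD, n = 3) and SOX9 had 0.663 ± 0.191 (SD, n = 3). Only PMEL and SOX9 overlapped as neighbours in this order. The libraries thus held high levels of both SOX10 and AXL RNA and little RNA of the pigment gene PMEL, and do not show whether the same cells held both.

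In A375RIPK4.KO the per-length order began with AXL (543 ± 47.2, SD, n = 3), SOX10 (385 ± 33.2, SD, n = 3), MITF (8.68 ± 1.49, SD, n = 3) and PAX3 (5.35 ± 0.659, SD, n = 3). SOX9 moved up to 4.36 ± 1.09 (SD, n = 3), where it overlapped PAX3, and NGFR moved down to 0.954 ± 0.400 (SD, n = 3), where it overlapped PMEL at 0.534 ± 0.427 (SD, n = 3). The top of the order depends on the length used. With the longest annotated transcript in place of all exons, chosen after seeing the data, SOX10 lay above AXL in A375neg (395 against 362) and below it in A375RIPK4.KO (343 against 408), and PAX3 lay above NGFR in A375neg and above MITF in A375RIPK4.KO.

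**Figure D3:**
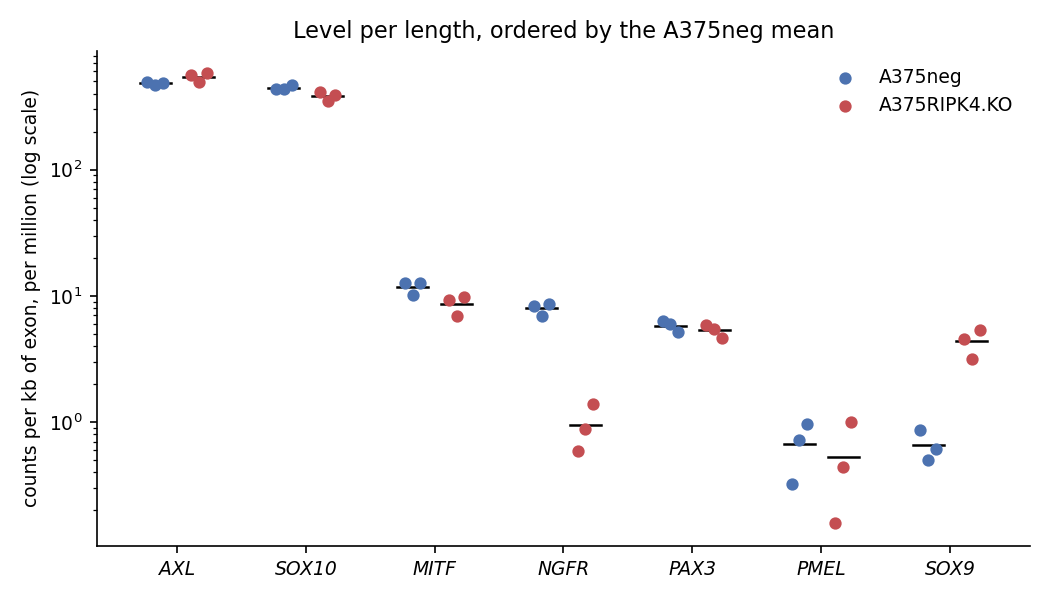
Per-length level of each member in each library on a log axis, by group. AXL and SOX10 lie far above the other members in both groups, and SOX9 lies below NGFR in A375neg and above it in A375RIPK4.KO.

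As a position on the axis between both states, the mean log2 of per-length level plus 1 of SOX9, NGFR and AXL was subtracted from that of MITF, SOX10, PAX3 and PMEL. The position was −0.41, −0.19 and −0.23 in the A375neg libraries and −0.33, −0.30 and −0.48 in the A375RIPK4.KO libraries. These ranges overlapped, and the means differed by −0.09, less than the pooled SD of 0.11. The size of this difference depended on single libraries and on the pseudocount. It was −0.16 without A375neg replicate 1, −0.05 without A375neg replicate 2, −0.04 without A375RIPK4.KO replicate 3 and −0.20 with a pseudocount of 0.1. Both terms of the score had lower means in A375RIPK4.KO, 3.77 against 3.99 for the melanocytic members and 4.14 against 4.27 for the dedifferentiated members, a term in which SOX9 was higher and NGFR lower. Before taking logs, AXL made up 98.13% to 99.18% of the summed per-length level of SOX9, NGFR and AXL. The score itself takes the plain mean of these genes on the log2 scale. There the added 1 damps the changes of genes with levels near or below 1, such as SOX9 in A375neg.

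Ratios between pairs of members separated the groups where the joint score did not. These were log2 ratios of the per-length levels with 1 added to each, as in the score. That of MITF and AXL was −5.24 ± 0.14 (SD, n = 3) in A375neg and −5.82 ± 0.11 (SD, n = 3) in A375RIPK4.KO, without overlap. That of SOX10 and SOX9 went from 8.07 ± 0.19 to 6.19 ± 0.22 (SD, n = 3), and that of NGFR and SOX9 from 2.43 ± 0.13 to −1.45 ± 0.33 (SD, n = 3). That of MITF and SOX10 overlapped, with means of −5.12 and −5.33. These ratios were given no test, since they are made from the members' own levels. With SOX9, the added 1 makes both the ratios and their shifts smaller in size than the levels alone give. The mean of SOX9 in A375neg (0.663) and that of NGFR in A375RIPK4.KO (0.954) lay below 1. The ratio of NGFR and SOX9 was not among those planned.

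The promoter of MITF and that of AXL are shown because these genes stand for the opposite ends of the axis. Each holds the 250 bases before the 5′-most RefSeq gene start (GRCh38.p14, plus strand), which for MITF is not the start used in melanocytes. Capitals mark ACAAT, a core form of the site of SOX proteins, on either strand (ATTGT on the other strand).
MITF, chr3:69739214-69739463: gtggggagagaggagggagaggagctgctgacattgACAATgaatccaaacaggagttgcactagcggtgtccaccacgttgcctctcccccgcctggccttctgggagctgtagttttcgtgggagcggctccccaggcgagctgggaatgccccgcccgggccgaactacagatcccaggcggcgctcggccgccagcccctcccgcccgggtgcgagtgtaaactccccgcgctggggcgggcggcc
AXL, chr19:41218973-41219222: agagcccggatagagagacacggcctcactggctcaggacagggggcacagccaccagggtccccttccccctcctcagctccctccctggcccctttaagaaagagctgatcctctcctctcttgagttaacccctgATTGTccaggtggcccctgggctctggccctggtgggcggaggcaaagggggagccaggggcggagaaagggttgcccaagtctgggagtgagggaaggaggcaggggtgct
Each held 1 match, 214 bases before the start in MITF and 112 bases before it in AXL. Of 27305 RefSeq promoters of this length, 25.2% held ACAAT on either strand. Neither held CATGTG or CACGTG, the E-box forms bound by MITF, or ACAAAG, which 9.54%, 6.49% and 13.7% of promoters held. Of the 10 listed members, 6 had a promoter in the RefSeq table.

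The wider programme was described with 5 lists of 86 genes written from general knowledge, with earlier results of these data known. Some genes were left out of the lists after their values were known. Of the 86 genes, 68 were tested and 28 passed, against 16.6% of all genes, which is not an independent comparison. Among pigment and melanosome genes none of 13 tested passed with edgeR, 3 had an unadjusted p under 0.05 (MYO5A, HPS4 and LYST, the last 2 named after their values were seen) and DESeq2 called 1, LYST. Their median log2 fold change was −0.02. The most abundant were MYO5A, the motor that carries melanosomes (log2 fold change 0.17, edgeR adjusted p = 0.124), and AP3B1, a subunit of a melanosome sorting adaptor (log2 fold change 0.07, edgeR adjusted p = 0.495). TYRP1, an enzyme of pigment synthesis named after its values were seen, had 1 to 8 raw counts per library.

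Of 10 other MITF targets tested, CDK2, a cell cycle kinase, fell (log2 fold change −0.43, edgeR adjusted p = 0.00119) and RRAGD, a GTPase of lysosomal nutrient sensing, rose (log2 fold change 0.73, edgeR adjusted p = 0.00788). Their median was −0.10. The abundant targets DIAPH1 (log2 fold change −0.07, edgeR adjusted p = 0.491) and MET (log2 fold change −0.13, edgeR adjusted p = 0.235) did not pass.

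Among 14 lineage regulators and receptors tested, 3 rose and 3 fell, with a median of −0.02. Both receptors that passed rose, EDNRB for endothelin from 185 ± 14.4 to 392 ± 40.3 normalised counts (SD, n = 3, log2 fold change 1.08, edgeR adjusted p = 0.000458) and MC1R for melanocortin by a log2 fold change of 0.50 (edgeR adjusted p = 0.0204), as did KITLG, the ligand of KIT (log2 fold change 0.78, edgeR adjusted p = 0.0209). The 3 genes that fell encode transcription factors, ZEB2 (log2 fold change −0.84, edgeR adjusted p = 0.000769), BHLHE40 (log2 fold change −0.67, edgeR adjusted p = 0.0312) and POU3F2 (log2 fold change −0.37, edgeR adjusted p = 0.0154). TFE3 and ZEB1, the most abundant that did not pass, had log2 fold changes of 0.10 and 0.04. Only 3 genes of the list passed without A375neg replicate 2, and 3 without A375neg replicate 3. EDNRB and ZEB2 passed in 12 of 12 alternative settings, while BHLHE40 and MC1R (each without A375neg replicate 2 or 3 or A375RIPK4.KO replicate 1), KITLG (without A375neg replicate 1 or 2 or A375RIPK4.KO replicate 3) and POU3F2 (without A375neg replicate 1 or 3) lost their calls.

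Of 11 neural crest and glial genes tested, 4 fell and 3 rose, with a median of −0.13, also with GPM6B at its bound. ERBB3, a neuregulin receptor and target of SOX10, fell from 7015 ± 209 to 2593 ± 239 normalised counts (SD, n = 3, log2 fold change −1.44, edgeR adjusted p = 4.45e-06). Also lower were S100B (log2 fold change −0.89) and S100A1 (−0.86), calcium-binding proteins, and the cadherin CDH19 (−0.83). SOX2, a factor of stem and neural progenitor cells, rose from 85.3 ± 13.8 to 316 ± 16.5 normalised counts (SD, n = 3, log2 fold change 1.89, edgeR adjusted p = 7e-05), and FOXD1 rose by a log2 fold change of 0.54 (edgeR adjusted p = 0.000403). GPM6B, a membrane protein of neurons and glia, had 0 counts in every A375neg library and 22, 15 and 15 in A375RIPK4.KO, at least 6.38-fold higher against 3 counts per library. GFRA2 had 6, 0 and 1 raw counts in A375neg and 0 in every A375RIPK4.KO library, too few to be tested. S100A1 passed in 2 of 11 alternative settings and lost its call without any 1 library, and S100B lost its call without A375neg replicate 2 or 3 or A375RIPK4.KO replicate 1 or 3. L1CAM and SLITRK6, the most abundant that did not pass, had log2 fold changes of −0.13 and −0.01.

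Of 20 tested genes of the undifferentiated and invasive state, 7 rose and 6 fell, with a median of 0.06. CCN2, a matricellular target of YAP and TEAD, had 2736, 2612 and 2540 raw counts in A375neg and 8256, 7753 and 8705 in A375RIPK4.KO (log2 fold change 1.78, standard error 0.08, edgeR adjusted p = 1.18e-06). Its relative CCN1 (log2 fold change 0.94) rose, as did JUN (1.13), TGFBI (0.83), LOXL2 (0.68), NT5E (0.34) and the tropomyosin TPM1 (2.15-fold). The list did not move one way, since the cytokines IL6 (−1.99) and CXCL8 (−0.50) and the ligand WNT5A (−1.19) fell, with BIRC3 (−0.45), TNC (−0.37) and AJUBA (−0.24). Calls lost with 1 library left out were those of TNC (any A375neg replicate), AJUBA (A375neg replicate 1 or 2, A375RIPK4.KO replicate 1 or 3) and CXCL8 (replicate 3 of either group). ANXA1 (log2 fold change −0.01) and THBS1 (−0.51, edgeR adjusted p = 0.0699) were the most abundant that did not pass. The THBS1 value varied with A375RIPK4.KO replicate 2, at 24146 raw counts against 35204 and 42802 in the other replicates. Its log2 fold change ran from −0.67 to −0.31 over 12 alternative settings, and it passed in 4 of them, the replicate block, the gene length correction and without A375RIPK4.KO replicate 2 or 3.

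**Figure D4:**
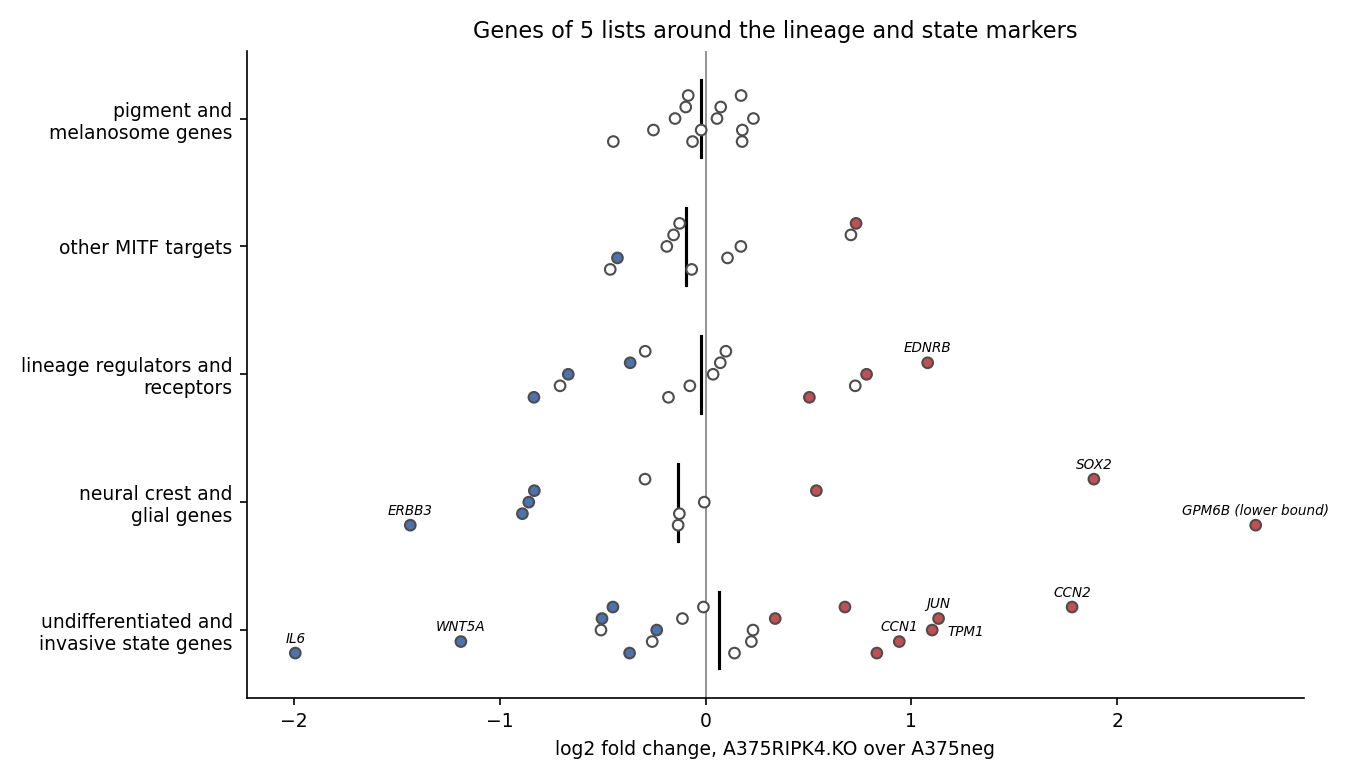
Log2 fold change of A375RIPK4.KO over A375neg for each tested gene of the 5 lists, red where a gene passed and was higher, blue where it passed and was lower and white where it did not pass, with a black line at each list's median. Pigment genes are all white, and the invasive state list holds passed genes on both sides of 0. GPM6B is drawn at its lower bound.

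Markers of other cell types were counted beside these lists. Of the listed markers with a row, the summed level of leukocyte markers (4 of 6) went from 454 to 522 CPM in A375neg to 67.8 to 73.3 in A375RIPK4.KO. Nearly all of it was CD74, the invariant chain (log2 fold change −2.81, edgeR adjusted p = 9.91e-08), and the leukocyte marker PTPRC had 0, 0 and 3 raw counts in A375neg and 0, 0 and 1 in A375RIPK4.KO. Keratinocyte markers (3 of 6) went from 71.4 to 75.5 in A375neg to 53.8 to 63.3 in A375RIPK4.KO, with KRT14 lower (log2 fold change −1.75). Fibroblast markers (4 of 6) went from 4.91 to 6.14 in A375neg to 4.21 to 5.71 in A375RIPK4.KO. The 3 tested had a median log2 fold change of −1.34, with PDGFRA, the most counted, at 0.27, and none passed. Endothelial markers (5 of 6) went from 28.3 to 32.6 in A375neg to 34.5 to 35.9 in A375RIPK4.KO, with PECAM1 lower (log2 fold change −2.12) and KDR higher (0.59). The part of other cells in the changes of NGFR and SOX9 was not tested.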

How the data were processed

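Libraries were made from poly(A) RNA with strand kept and were read from both ends. The submitters' processing notes name cutadapt, FastQC, HISAT2, HTSeq and DESeq2 and the build GRCh38.p13, without versions of the tools. The counting's strand setting is not given in the sources used here. The raw counts were deposited by the authors as whole reads per gene, without normalisation, and the lowest total of a listed gene is 4. The deposited table also holds a signal made by the authors, raw counts over a size factor of each library (largest difference from that rule 0.0074), and the authors' fold changes, log2 values, scores and p-values. None of these was used.

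The test on raw counts was edgeR 4.0.16 in R 4.3.3, with TMM factors, the filterByExpr filter, the quasi-likelihood method and Benjamini-Hochberg adjustment. For normalised counts, raw counts were scaled by TMM to the mean library size. Gene lengths came from GENCODE 29 for 16708 genes, and 4143 genes without a length, holding 5.4% of counts, were left out of per-length levels. Coordinates are those of RefSeq on GRCh38.p14. The table's exons overlapped the RefSeq gene for 98.34% of genes.

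Other settings tried were the tool DESeq2 1.42.0, its size factors within edgeR, omission of the low-count filter, a minimum mean of 50 counts, a block for the replicate number, a correction for the trend on gene length, a 1.5-fold limit, each library left out, and for the state axis a pseudocount of 0.1 in place of 1, the longest transcript and each library left out. The members, the lists and the tests were chosen with earlier results of these data known. The rule for names took all members, every listed gene that passed, the 2 most abundant of each list that did not, and genes at 0 in a group. Some listed genes are not reported here and were left out of the lists after their values were known, which changes the lists' counts and medians. The steps were tested on simulated counts, where edgeR recovered most changed genes. DESeq2 went past the limit on false calls first set for both tools. That limit was then kept for edgeR alone, so calls made with DESeq2 only carry less weight. The simulated counts were drawn with edgeR's own estimates of the spread of each gene, so they are not a neutral comparison of the tools. Plots used matplotlib 3.10.9 in Python 3.11.15.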

Additional observations from a re-analysis of the deposited data

How the results depend on the processing

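Of the 7 members, 3 passed in the reported comparison, 5 with DESeq2 and 5 when the length trend was removed. Higher were 2 in both of these and 1 or 2 with 1 library left out, where the second was AXL without A375RIPK4.KO replicate 2. Lower were 1 without the filter on low counts, 1 with the 1.5-fold limit and 1 or 2 with 1 library left out, where MITF lost its call without A375neg replicate 1 or 3 or A375RIPK4.KO replicate 1, 2 or 3. Only SOX9 and NGFR passed in every alternative. The replicate number as a block left 3 members past the test, and of all the listed genes 31 passed with it. Samples with the same number did not deviate together (correlations of 0.082, 0.036 and −0.012), so the numbers were not taken as pairs. PAX3 turned sign without A375RIPK4.KO replicate 3, to 0.002, and its log2 fold change ran from −0.184 to 0.002 with 1 library left out. PMEL turned sign without A375neg replicate 3 (0.045) and without A375RIPK4.KO replicate 1 (0.127), and ran from −1.061 to 0.127. The difference in state axis position was −0.204 with a pseudocount of 0.1, against −0.092, and −0.054 with the longest transcript. No axis member was under 10 counts in every library, so leaving such genes out gave no other value. Of the pigment genes, 1 passed with DESeq2, 1 with the block, 2 with the gene length correction and 1 without A375RIPK4.KO replicate 2. With the 1.5-fold limit, 1 other MITF target and 8 genes of the invasive state passed. Causes were not tested. PMEL, with 3 to 22 raw counts per library, is limited by depth.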
